A study of Mus musculus with 64 samples.

Results

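The identity of normal brown and white fat was read from RNA-sequencing libraries of whole tissue, in which brown adipose tissue (BAT) of wild-type (WT) mice was set gene by gene against their epididymal white fat (eWAT). The comparison used all 16 libraries of WT BAT against all 16 libraries of WT eWAT, 32 of the 64 libraries in the series, with the time of day as a factor. Each depot was sampled at Zeitgeber time (ZT) 6, 10, 18 and 22, where ZT 0 is the start of the light phase, with 4 libraries at each time. The WT mice were male Cre- littermates from the *Nampt* tm1Jtree line, in which an exon of *Nampt* lies between loxP sites, crossed with Adiponectin-Cre mice. The labels give no age or diet. The other libraries came from fat-specific *Nampt* knockout (FANKO) mice, in which the Adiponectin promoter drives the Cre. No label ties a BAT library to an eWAT library of the same mouse, and the p values measure the spread between libraries, which may be technical in part.

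Brown adipocytes burn fatty acids and glucose in their many mitochondria and release the energy as heat, because uncoupling protein 1 lets protons back across the inner membrane without making ATP. White adipocytes keep a single large fat droplet, have few mitochondria, and secrete hormones such as leptin. The depots also have separate origins: interscapular BAT descends from the somites that give rise to back muscle, and visceral white fat lies under a mesothelium, the cell layer that lines the body cavity. The question was which genes carried this identity in normal mice, by how much, and whether the difference held through the day.

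Total counts ran from 8299625 to 30544847 in BAT and from 9542604 to 22476129 in eWAT. Genes of the mitochondrial genome took 16.8 to 40.7% of the counts in BAT and 3.88 to 10.7% in eWAT, and the composition factors used for scaling (TMM) ran from 0.59 to 0.918 in BAT and from 1.14 to 1.51 in eWAT. The first principal component held 71.8% of the variance and separated the depots without overlap. PC3 held 2.36% and set apart the BAT and the eWAT library labelled ZT18 replicate 4, which scored -66.9 and -58.1. No columns were identical. Levels are in CPM (counts scaled by TMM and set to a common library total), given as the lowest, the median and the highest of the 16 libraries, and a depot difference is the fitted log2 fold change of BAT over eWAT ± SE, averaged over the 4 times.

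Most of the transcriptome differed between the depots. Of 19020 genes tested by edgeR's quasi-likelihood test at a false discovery rate (FDR) of 0.01, 6463 were higher in BAT (34% of the genes tested) and 7567 were higher in eWAT (39.8%). Because so many genes passed, groups of genes were described with a stricter test, edgeR's glmTreat, which asks whether a difference exceeds 2-fold. It called 1817 genes toward BAT (9.55%) and 3524 toward eWAT (18.5%). This balance moved with the scaling: with library size alone, without composition factors, the differences shifted by a median of -0.76 on the log2 scale and the same test called 808 and 6296 genes, so that BAT held 11.4% of the calls and not 34%. For 2497 genes (13.1%) every BAT library lay above every eWAT library, and for 2996 (15.8%) the reverse held. In whole tissue, fewer cells of a type and less RNA per cell cannot be told apart.

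**Figure D1:**
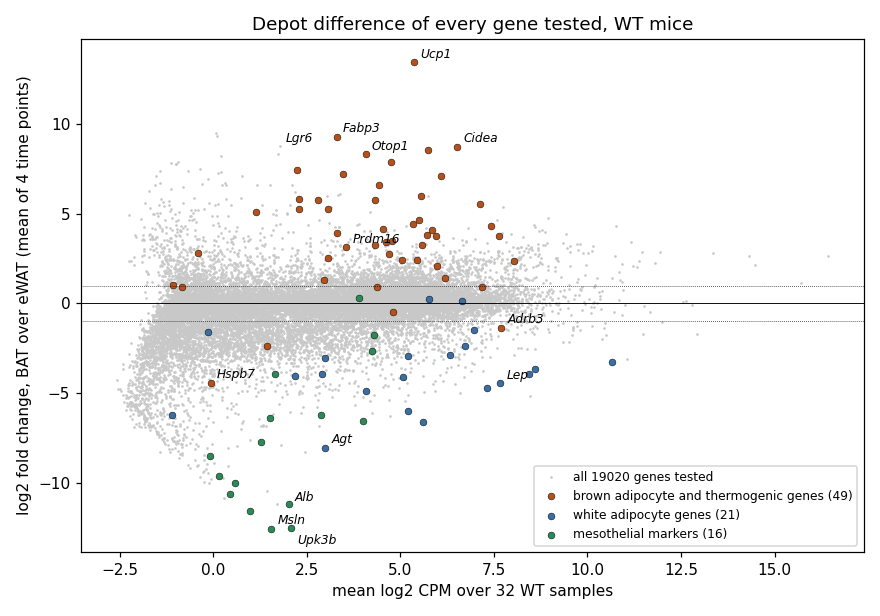
Each point is 1 of the 19020 genes tested, with its mean log2 CPM over the 32 WT libraries on the x axis and its log2 fold change of BAT over eWAT on the y axis; dotted lines mark a 2-fold difference. The brown adipocyte genes lie mostly above 0, up to *Ucp1* at a fitted 13.46, and the white adipocyte and mesothelial genes mostly below, down to *Msln* at a fitted -12.56.

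The genes of the brown fat program were mostly far higher in BAT. Of 49 brown adipocyte and thermogenic genes tested, 41 were more than 2-fold higher in BAT and 3 were more than 2-fold higher in eWAT, with a median log2 fold change of 3.81 against -0.07 over all genes tested. *Ucp1*, which encodes the uncoupling protein itself, was at 1806, 4077 and 6947 CPM in BAT and at 0, 0.201 and 2.26 CPM in eWAT, a difference of 13.46 ± 0.35 (glmTreat adjusted p = 5.62e-24). No eWAT library came near a BAT library. *Cidea*, a lipid droplet protein and classic brown marker, was at 1543, 1982 and 2239.6 CPM in BAT and 1.95, 3.87 and 10.2 CPM in eWAT (difference 8.74 ± 0.22, glmTreat adjusted p = 2.81e-24). It ran over a narrower range among the BAT libraries than *Ucp1*. *Otop1*, which encodes a proton channel, was at 232, 293 and 431 CPM in BAT and 0.13, 0.891 and 2.5 CPM in eWAT (8.32 ± 0.21). *Elovl3*, an elongase of very long chain fatty acids, differed by 7.24 ± 0.24. The genes of *Elovl3*, *Fabp3*, *Acot11* and *Cpt1b* overlap others (*Pitx3*, *Zcchc17*, *Fam151a* and Gm44502), and the strand option of the counting was not given in the sources used here, so that reads could have been shared.

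Among the genes with the largest differences toward BAT were some that handle fatty acids. *Fabp3*, the fatty acid binding protein of heart and muscle, was at 84.1, 231 and 345 CPM in BAT and 0.122, 0.345 and 0.637 CPM in eWAT (9.29 ± 0.20, glmTreat adjusted p = 2.37e-25). *Cpt1b*, the muscle form of the enzyme that passes fatty acids to carnitine, was at 44.6, 55 and 63.2 CPM in BAT and 0.0836, 0.265 and 0.502 CPM in eWAT (7.44 ± 0.11). *Acot11*, an acyl-CoA thioesterase also known from cold-exposed BAT, was at 644, 1036 and 1533 CPM in BAT and 1.34, 2.58 and 4.64 CPM in eWAT (8.56 ± 0.16). In all 3 the depots were far apart at every time. *Lgr6*, *Aspg* and *Fer1l6*, also among the 12 protein-coding genes with the largest differences toward BAT at a mean log2 CPM of at least 1, differed by 8.78 ± 0.31, 6.62 ± 0.18 and 6.59 ± 0.23. *Slc27a2*, a fatty acid transporter and acyl-CoA synthetase, differed by 5.75 ± 0.27, and *Plin5*, which ties lipid droplets to mitochondria, by 4.63 ± 0.12.

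Regulators of the brown program were higher in BAT as well. *Prdm16*, a coregulator that fixes brown fate, was at 19.7, 35.6 and 55.2 CPM in BAT and 2.78, 4.02 and 5.67 CPM in eWAT (3.14 ± 0.13). *Ppargc1a*, the coactivator of mitochondrial genes, was at 28.8, 59.8 and 113 CPM in BAT and 4.38, 6.34 and 9.93 CPM in eWAT (3.23 ± 0.10), and *Ebf2*, an early factor of the brown lineage, differed by 1.42 ± 0.06. All 3 were above 2-fold by glmTreat and did not overlap between depots. The nuclear receptors *Esrrg* and *Ppara*, which drive oxidative genes, differed by 5.27 ± 0.22 and 4.42 ± 0.19. *Dio2*, the enzyme that activates thyroid hormone, was at 9.48, 43.8 and 192 CPM in BAT and 0.223, 0.919 and 6.65 CPM in eWAT, so that its BAT libraries were widely spread, and the difference was 5.29 ± 0.32.

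Several genes on the brown list did not follow it. *Adrb3*, the main receptor for noradrenaline on adipocytes, was higher in eWAT, at 65.8, 134 and 218 CPM in BAT and 264, 347 and 410.0 CPM in eWAT (-1.36 ± 0.11, glmTreat adjusted p = 0.001). Every eWAT library was above every BAT library. *Hspb7*, a small heat shock protein, was at 0, 0.142 and 0.504 CPM in BAT and 1.07, 3.54 and 8.43 CPM in eWAT (-4.44 ± 0.38), and *Epsti1* differed by -2.35 ± 0.18. *Bmp8b*, a secreted factor of brown fat, was near the lower limit of detection in both depots and did not pass the 2-fold test (0.90 ± 0.24, glmTreat adjusted p = 0.93).

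**Figure D2:**
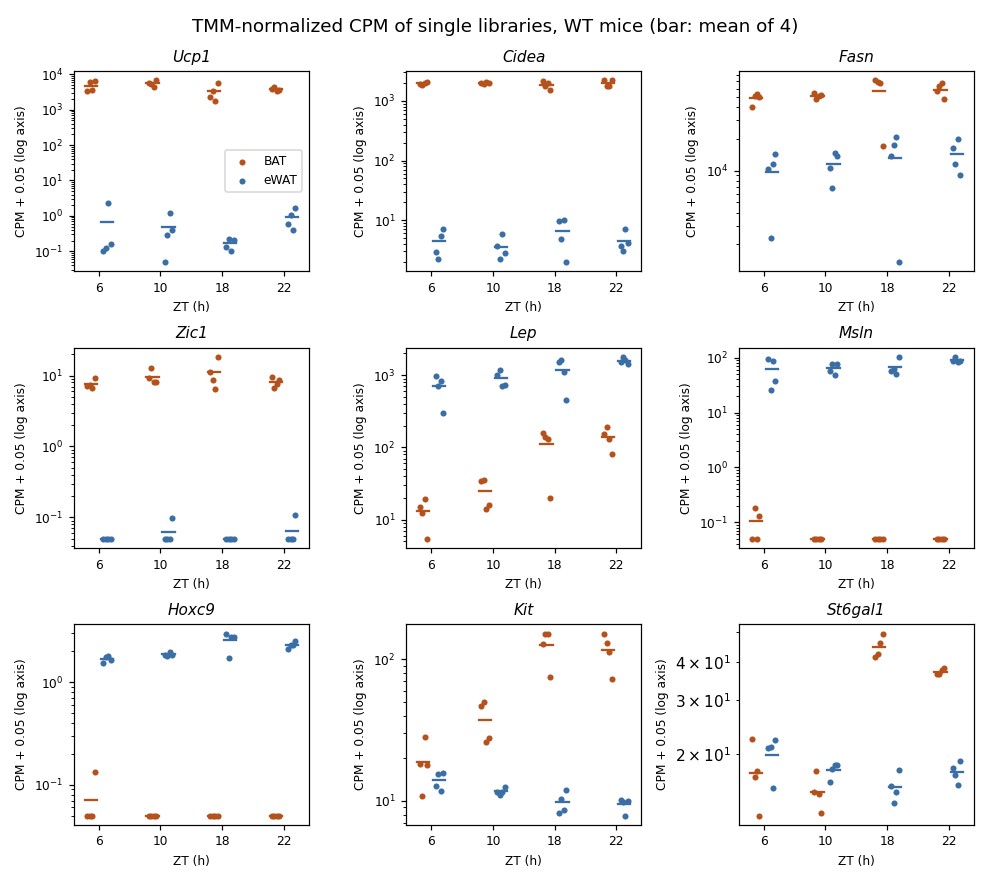
Each panel shows 1 gene in single WT libraries, with ZT in hours on the x axis and CPM plus 0.05 on a log y axis; points are libraries (BAT in brown, eWAT in blue), and bars are means of 4. *Ucp1*, *Cidea*, *Zic1*, *Msln* and *Hoxc9* keep the depots apart at every time, *Fasn* and *Lep* differ less, *Kit* parts from ZT10 on, and *St6gal1* at ZT18 and ZT22.

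Mitochondrial genes rose in BAT as a block. Of 79 nuclear genes for subunits of the respiratory chain and ATP synthase, 74 were more than 2-fold higher in BAT and 1 was more than 2-fold higher in eWAT, with a median difference of 2.54 and quartiles of 2.26 and 2.90. Of 22 genes of the tricarboxylic acid cycle, 21 were more than 2-fold higher in BAT and none in eWAT (median 3.01). For 75 of the 79 and 21 of the 22 every BAT library was above every eWAT library. Of 13 protein-coding genes of the mitochondrial genome 8 were tested, and all 8 were more than 2-fold higher in BAT (median 2.94). *mt-Co1*, which encodes a core subunit of cytochrome oxidase, was at 42316, 52554 and 59555 CPM in BAT and 5820.5, 8217 and 11993 CPM in eWAT (2.66 ± 0.10). Among genes that passed the 2-fold test, the 5 with the largest difference in CPM toward BAT were *Fasn* and 4 genes of this genome. Besides *mt-Co1*, the ribosomal RNAs *mt-Rnr2* and *mt-Rnr1* differed by 2.63 ± 0.22 and 2.80 ± 0.34 and *mt-Cytb* by 2.90 ± 0.13, and *mt-Rnr2* alone took 10.4 to 29.0% of all counts in BAT and 2.37 to 7.79% in eWAT. Reads of this genome can also match nuclear copies, so the levels of single mitochondrial genes are uncertain. The libraries were ribosome-depleted, so reads of *mt-Rnr1* and *mt-Rnr2* may also depend on how much of these RNAs the depletion left.

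Within the block, 2 tissue forms of cytochrome oxidase subunits stood far out. *Cox7a1* was at 308, 411 and 521 CPM in BAT and 0.684, 1.7 and 3.21 CPM in eWAT (7.92 ± 0.14), and *Cox8b* at 669, 809 and 972 CPM in BAT and 2.59, 5.64 and 10.8 CPM in eWAT (7.13 ± 0.17). The next subunit, *Cox5a*, differed by 3.47 ± 0.08. Among the 79, *Atp5g1*, one of the genes for subunit c of ATP synthase, was the exception that passed the 2-fold test the other way, at 2.1, 3.77 and 6.65 CPM in BAT and 12.8, 15.1 and 22.1 CPM in eWAT (-2.11 ± 0.10). *Atp5g3*, named here after its values were seen, encodes the same protein and had 119, 144 and 169.7 CPM in BAT and 112, 153 and 206 CPM in eWAT (-0.07 ± 0.07), which did not pass either test; reads of near-identical gene copies could have been split. In the tricarboxylic acid cycle, *Cs* (citrate synthase) had 2427, 2821 and 3141 CPM in BAT and 256, 407 and 593 CPM in eWAT (2.80 ± 0.09). Its depots did not overlap.

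The promoters of these nuclear genes were searched for 2 motifs known from mitochondrial genes: TCAAGGTCA, bound by estrogen-related receptors (ERR), and the palindromic NRF1 element. RefSeq windows (build GRCm38.p6) from 250 bases before to 50 bases after a start were matched by symbol, which gave a window for 64 of the 79 respiratory chain genes, and both strands were read. The ERR motif was in the windows of 2 of the 64 genes (3.12%) in 0.351% of the 12259 genes tested that had a window, and in 0.466% of all 27025 genes with a window. The NRF1 motif, which reads the same on both strands, was in 5 of the 64 (7.81%), in 2.06% of the genes tested and in 1.07% of all, and also in 2 of 17 white adipocyte genes (11.8%). No window of the 64 held both motifs. Shown are, for each motif, the gene with the highest and the gene with the lowest depot difference, with the matched bases in capitals. *Sdhd*, a subunit of succinate dehydrogenase, and *Atp5g3* both hold the ERR motif on the reverse strand, but differed by 3.09 ± 0.06 and -0.07 ± 0.07. *Uqcrc1*, a core protein of complex III, and *Atp5g2*, another gene for subunit c, hold the NRF1 motif and differed by 3.24 ± 0.07 and 1.42 ± 0.06. These genes were chosen for their motifs and values.
Sdhd (ERR element, chr9:50603800-50604099, - strand): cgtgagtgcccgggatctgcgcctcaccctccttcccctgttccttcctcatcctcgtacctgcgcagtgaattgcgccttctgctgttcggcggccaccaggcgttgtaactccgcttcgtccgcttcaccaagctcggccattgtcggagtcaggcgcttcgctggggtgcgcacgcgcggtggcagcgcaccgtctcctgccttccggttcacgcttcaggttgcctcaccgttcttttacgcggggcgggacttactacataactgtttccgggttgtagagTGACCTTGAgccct
Atp5g3 (ERR element, chr2:73911277-73911576, - strand): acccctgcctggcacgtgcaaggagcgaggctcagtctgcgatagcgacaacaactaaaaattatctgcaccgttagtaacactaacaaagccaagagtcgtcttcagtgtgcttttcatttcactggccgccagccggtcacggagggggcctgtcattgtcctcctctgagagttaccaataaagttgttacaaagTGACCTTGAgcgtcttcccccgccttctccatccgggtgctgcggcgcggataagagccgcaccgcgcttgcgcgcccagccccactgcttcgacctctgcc
Uqcrc1 (NRF1 element, chr9:108936398-108936697, + strand): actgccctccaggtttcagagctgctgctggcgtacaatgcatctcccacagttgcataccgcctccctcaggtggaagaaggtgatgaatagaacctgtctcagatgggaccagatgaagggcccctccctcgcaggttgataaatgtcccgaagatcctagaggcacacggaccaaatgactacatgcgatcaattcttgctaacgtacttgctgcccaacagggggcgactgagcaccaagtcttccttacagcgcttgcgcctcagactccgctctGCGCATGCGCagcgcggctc
Atp5g2 (NRF1 element, chr15:102670998-102671297, - strand): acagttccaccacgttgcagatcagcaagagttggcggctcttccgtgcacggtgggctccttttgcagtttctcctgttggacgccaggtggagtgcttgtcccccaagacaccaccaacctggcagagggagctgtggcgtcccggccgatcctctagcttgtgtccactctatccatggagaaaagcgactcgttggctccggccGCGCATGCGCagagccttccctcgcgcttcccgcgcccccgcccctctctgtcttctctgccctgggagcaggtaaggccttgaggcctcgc

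Fatty acid oxidation rose with the mitochondrial genes. Of 26 genes tested, 20 were more than 2-fold higher in BAT and 1 was more than 2-fold higher in eWAT (median 2.52). *Acadvl*, which starts the oxidation of very long chains, was at 1532, 1744 and 2007 CPM in BAT and 66.7, 82.7 and 112 CPM in eWAT (4.37 ± 0.07), and *Acaa2*, which ends each round, differed by 4.75 ± 0.09. *Hadha*, the trifunctional protein, differed by 3.88 ± 0.08. *Cpt1a*, the liver form of the carnitine enzyme, went the other way, at 12.6, 19.6 and 27.3 CPM in BAT and 59.5, 83.9 and 104 CPM in eWAT (-2.09 ± 0.05, glmTreat adjusted p = 1.03e-18). The creatine and calcium cycles, which can release heat without uncoupling protein, showed no such block: 3 of 13 genes were called in each direction, and 1 in BAT without replicate 4 of every group. *Alpl*, an alkaline phosphatase, was at 8.49, 13.9 and 16.9 CPM in BAT and 2.38, 3.7 and 5.14 CPM in eWAT (1.90 ± 0.11), whereas *Atp2b4*, a calcium pump of the cell membrane, was at 14.1, 20.4 and 25.5 CPM in BAT and 216, 277 and 359.6 CPM in eWAT (-3.82 ± 0.07). *Ckmt2* and *Atp2a1* were called in BAT, but both are also muscle genes and are given with the muscle markers.

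The balance between paralogs was compared within each library. Apart from a small added count, a ratio within a library does not depend on the scaling between libraries. For this reason 28 gene pairs were compared as the log2 ratio of their length-normalized levels. A prior count of 2, scaled to the size of the library, was added to each gene. In 13 pairs all BAT ratios were above all eWAT ratios, in 2 pairs all were below, and in 13 the depots overlapped. No test was made. With a prior count of 0.5, 15 of the 28 pairs again had no overlap, but ratios with few counts moved. The lowest eWAT ratio of *Cpt1b* over *Cpt1a* went from -7.70 to -8.53. For *Cpt1b* over *Cpt1a* the ratio was 2.29 to 3.31 in BAT and -7.70 to -5.88 in eWAT, so that the form with the higher length-normalized level switched; without length normalization BAT was at 1.11 to 2.13. For *Cox7a1* over *Cox7a2* the ratio was 0.28 to 0.71 in BAT and -5.82 to -4.28 in eWAT, but without length normalization it was below 0 in BAT too (-0.54 to -0.11). For *Cox8b* over *Cox8a* it was 0.50 to 1.13 in BAT and -5.28 to -3.45 in eWAT, and without length normalization BAT lay on both sides of 0 (-0.28 to 0.34). For *Plin5* over *Plin1* and *Ldhb* over *Ldha* the ratio rose in BAT but stayed below 0 in all libraries, with medians of -0.93 against -5.92 and of -0.91 against -2.90. The 2 pairs that lay higher in eWAT were *Cox4i2* over *Cox4i1* and *Aox3* over *Aox1*. For *Slc25a4* over *Slc25a5*, the carriers of ADP and ATP, the medians were -0.43 and -0.18 and the depots overlapped.

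**Figure D3:**
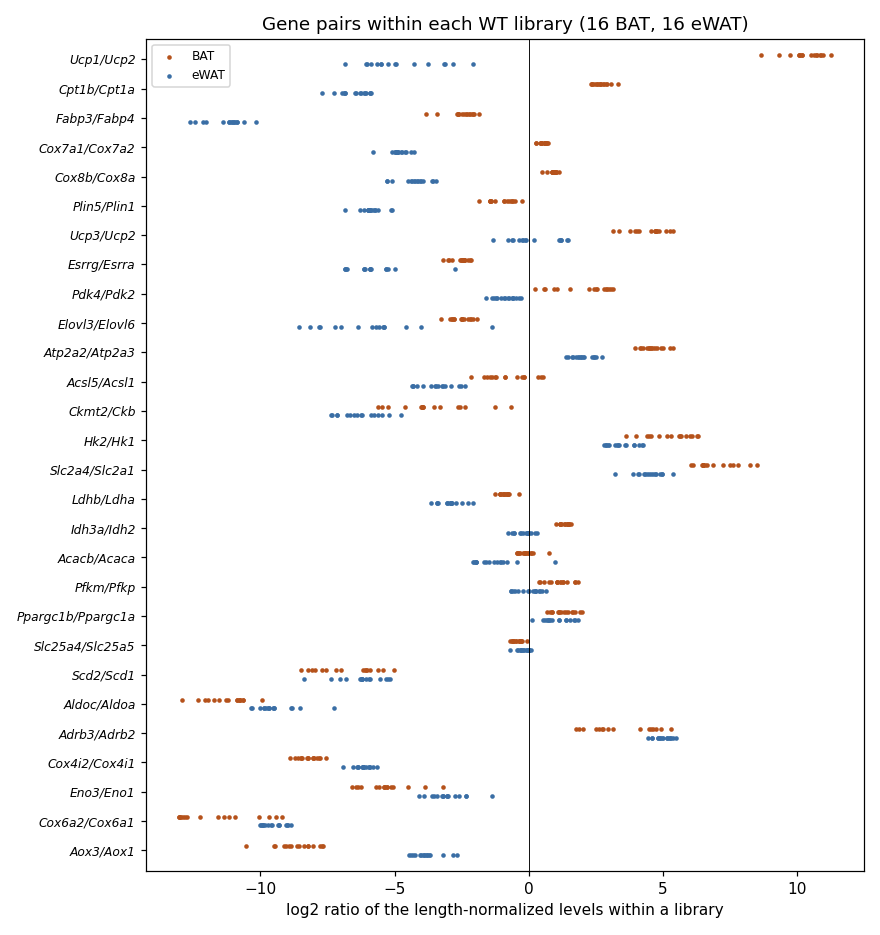
Each row is a gene pair and each point a WT library, placed by the log2 ratio of the length-normalized level of the first gene over the second; BAT is brown and eWAT blue. From the top, *Ucp1*/*Ucp2*, *Cpt1b*/*Cpt1a* and *Fabp3*/*Fabp4* hold the largest gaps between depots, and 13 of the 28 pairs overlap.

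Genes that make and use glucose-derived fat were higher in BAT, though less evenly. Of 21 genes of de novo lipogenesis, 10 were more than 2-fold higher in BAT and 1 in eWAT (median 1.23), but with library size alone 2 were called in BAT and 2 in eWAT. *Fasn*, fatty acid synthase, was at 17187, 52104 and 72446 CPM in BAT and 1361, 12614 and 20702 CPM in eWAT (2.16 ± 0.26, glmTreat adjusted p = 2.86e-05). The depots overlapped in 1 library, the BAT library labelled ZT18 replicate 4, which had 17187 CPM against 40393 to 72446 in the other 15. The eWAT library with the same label was also the lowest of its depot, with 1361 CPM against 2273 to 20702. *Acly*, which makes cytosolic acetyl-CoA, and *Scd1*, a desaturase, were lowest in the same 2 libraries; what set these libraries apart was not tested. Without them the list still held 10 calls in BAT. *Acacb*, the carboxylase whose product curbs fatty acid oxidation, was at 2104, 2721 and 3874 CPM in BAT and 118, 251 and 659 CPM in eWAT (3.31 ± 0.11). *Fads1*, a desaturase of polyunsaturated fatty acids, was the gene called in eWAT (10.4, 15.3 and 20.9 CPM in BAT, 70.8, 88.9 and 116 CPM in eWAT, -2.52 ± 0.06).

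Of 34 genes of glucose uptake and glycolysis, 17 were more than 2-fold higher in BAT and 4 in eWAT (median 1.56). *Slc2a4*, the insulin-regulated glucose transporter, was at 406, 604 and 951 CPM in BAT and 103, 162 and 277 CPM in eWAT (1.90 ± 0.09), and *Hk2*, the hexokinase of insulin-sensitive tissue, at 353, 825 and 1604 CPM in BAT and 124, 202 and 339 CPM in eWAT (2.13 ± 0.12). *Pdk4*, which shuts glucose carbon out of the mitochondria, was at 295, 1231 and 1943 CPM in BAT and 12.9, 20.1 and 55.9 CPM in eWAT (5.57 ± 0.23). No BAT library of *Slc2a4*, *Hk2* or *Pdk4* fell among the eWAT libraries. The transporter of nerve and immune cells, *Slc2a3*, was higher in eWAT (1.21, 1.98 and 10.5 CPM in BAT, 16.8, 23.7 and 63.3 CPM in eWAT, -3.50 ± 0.19). *Pklr*, the pyruvate kinase of liver and red cells, was at 0 in all BAT libraries and at 0.0487, 0.785 and 6.71 CPM in eWAT, at least 86.4-fold higher against a limit of 3 counts over the 16 BAT libraries.

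White adipocyte genes were higher in eWAT. Of 22 such genes 21 were tested; 19 were more than 2-fold higher in eWAT and none was in BAT (median -3.91). *Lep*, which encodes the satiety hormone leptin, was at 5.37, 34.5 and 193 CPM in BAT and 298, 1046 and 1805 CPM in eWAT (-4.46 ± 0.26, glmTreat adjusted p = 2.31e-14), and *Retn*, the hormone resistin, at 16.7, 30.3 and 71.3 CPM in BAT and 572, 851 and 1112 CPM in eWAT (-4.75 ± 0.15). Neither overlapped, although BAT *Lep* ran over a wide range. *Agt*, the precursor of angiotensin, was at 0.0749, 0.288 and 7.82 CPM in BAT and 86.6, 132 and 269 CPM in eWAT (-8.07 ± 0.32). *Nnat*, an imprinted gene of neuronal and white fat cells, was at 2.67, 4.67 and 12.8 CPM in BAT and 200.5, 495 and 906 CPM in eWAT (-6.62 ± 0.20), and *Slc7a10*, a carrier of small neutral amino acids at the surface of white adipocytes, at 2.82, 9.45 and 17.7 CPM in BAT and 71.4, 141 and 180.3 CPM in eWAT (-4.10 ± 0.13). Among genes that passed the 2-fold test, those with the largest difference in CPM toward eWAT were *Car3*, a carbonic anhydrase (2996, 4394 and 5708 CPM in BAT, 10964, 13602 and 20616 CPM in eWAT, -1.71 ± 0.08), *Gsn*, which severs actin (-3.09 ± 0.12), *Cfd*, the adipokine adipsin (-3.26 ± 0.18), *Ahnak* (-1.70 ± 0.06) and *Cyp2e1*, a cytochrome P450 (-5.16 ± 0.29). Among 45 adipokines and other secreted factors tested, 28 were more than 2-fold higher in eWAT and 3 in BAT (median -1.65). The 3 were *Pm20d1*, an enzyme that makes uncoupling lipids (2.84 ± 0.12), *Cxcl14* (2.48 ± 0.13) and *Nampt* (2.13 ± 0.08).

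Genes that all adipocytes use had a median difference near 0. Of 30, 3 were more than 2-fold higher in BAT and 4 in eWAT, and the median was 0.25, or -0.51 with library size alone. The shares over all genes tested were 9.55% in BAT and 18.5% in eWAT, with a median of -0.07, so neither count stands out. Without the libraries labelled ZT18 replicate 4, 5 were called in BAT. *Fabp4*, the fatty acid binding protein of adipocytes, was at 5575, 6894 and 8086 CPM in BAT and 4694, 5944 and 8514 CPM in eWAT (0.16 ± 0.07, quasi-likelihood adjusted p = 0.048; -0.60 with library size alone). *Pparg*, the master regulator of fat cells, was at 335, 368 and 432 CPM in BAT and 148, 239.6 and 303 CPM in eWAT (0.65 ± 0.07; -0.11 with library size alone). *Adipoq*, the hormone adiponectin, was more than 2-fold higher in eWAT, at 592, 881 and 1175 CPM in BAT and 1703, 2219.8 and 2594 CPM in eWAT (-1.34 ± 0.07, glmTreat adjusted p = 2.10e-05). The caveolar genes *Cav1* and *Cavin1*, whose products form the pits of the fat cell surface, were also higher in eWAT (-1.73 ± 0.09 and -1.43 ± 0.07), as was *Plin4*, a coat protein of small droplets (-2.01 ± 0.07). *Cebpb*, a factor of early fat cell differentiation, was higher in BAT (32.4, 48.5 and 62 CPM in BAT, 4.77, 7.6 and 17.4 CPM in eWAT).

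Some transcription factors of embryonic patterning had almost no reads in 1 of the depots. Of 41 such factors other than Hox genes that were tested, of 65 listed, 9 were more than 2-fold higher in BAT and 17 in eWAT. *Zic1*, which marks the dorsal somite and its brown fat, was at 6.49, 8.36 and 18.4 CPM in BAT and 0, 0 and 0.0592 CPM in eWAT, from 1854 counts against 2. The ratio of pooled levels was 1506, with a 95% interval from the counts of 416 to 12448. Its neighbor *Zic4*, which overlaps it on the other strand, was at 0.985, 1.75 and 2.66 CPM in BAT and at 0 in all eWAT libraries, at least 188-fold higher. *Lhx8*, a LIM factor known as a brown fat marker, had 476 counts in BAT and 1 in eWAT. *Tbx15*, a factor of trunk mesoderm, was at 2.32, 3.3 and 5.8 CPM in BAT and 0, 0.0684 and 0.178 CPM in eWAT (5.25 ± 0.21), and *Tbx5*, a factor of heart and forelimb, differed by 5.62 ± 0.26. These intervals and limits cover counting error only.

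The eWAT side held factors of the body cavity wall. *Wt1*, the Wilms tumor factor of mesothelium and visceral fat progenitors, was at 0, 0 and 0.0636 CPM in BAT and 11.5, 14.7 and 25.3 CPM in eWAT, from 1 count against 5308, a ratio of 3266 (586 to 129042). *Bnc1*, a zinc finger protein of epithelia, was at 0, 0 and 0.135 CPM in BAT and 7.79, 17.2 and 21.6 CPM in eWAT, from 3 counts against 5630, a ratio of 1155 (395 to 5602). *Gata5* was at 0 in all BAT libraries and at 0.964, 2.39 and 4.92 CPM in eWAT, at least 177-fold higher, and *Tcf21*, a factor of white preadipocytes, had 1 count against 768. *Gata6* was at 0.133, 0.874 and 3.07 CPM in BAT and 10.7, 16.4 and 18.2 CPM in eWAT (-3.85 ± 0.16). *Wt1* and *Bnc1* are also on the list of mesothelial markers given below.

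Among the Hox genes, which record position along the body axis, the calls toward each depot lay in different clusters. Of 39, 24 were tested, and 3 were more than 2-fold higher in BAT and 9 in eWAT (median -0.75). The shares over all genes tested were 9.55% in BAT and 18.5% in eWAT, so the count in BAT was near its share. All 3 in BAT lay in the *Hoxa* cluster (chromosome 6), and the 9 in eWAT lay in *Hoxb* (5 genes, chromosome 11), *Hoxc* (2, chromosome 15) and *Hoxd* (2, chromosome 2). With library size alone the counts were 0 and 14. In *Hoxc* the genes with paralog numbers 4 to 6 did not pass the 2-fold test, whereas *Hoxc8* was at 2.48, 3.73 and 5.47 CPM in BAT and 29.9, 48.8 and 60.9 CPM in eWAT (-3.69 ± 0.11), and *Hoxc9* was at 0, 0 and 0.0827 CPM in BAT and 1.49, 1.87 and 2.94 CPM in eWAT, from 1 count against 702, a ratio of 432 (77.3 to 17087). In *Hoxa* the members turned back and forth: *Hoxa4* was at 3.19, 5.17 and 6.72 CPM in BAT and 0.738, 1.39 and 2.16 CPM in eWAT (1.95 ± 0.12), *Hoxa5* differed by 1.44 ± 0.06, and *Hoxa9* by 1.87 ± 0.25, with overlap between depots. Between them, *Hoxa6* and *Hoxa7*, named after their values were seen, differed by -1.12 ± 0.20 and -0.60 ± 0.09.

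**Figure D4:**
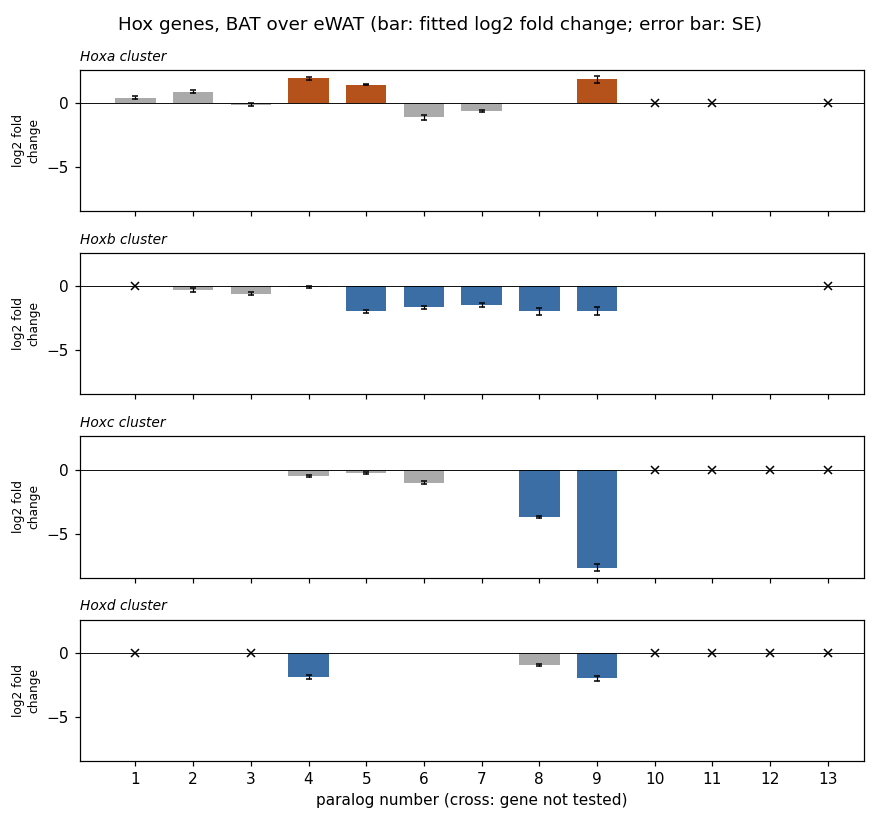
Each panel is a Hox cluster with the paralog number on the x axis and the log2 fold change of BAT over eWAT ± SE on the y axis; colored bars passed the 2-fold test, gray bars did not, and crosses are genes not tested. *Hoxa4*, *Hoxa5* and *Hoxa9* rise above 0, and *Hoxc9* falls to a fitted -7.65, from 1 count in BAT.

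Receptors coupled to cAMP, the signal through which noradrenaline turns on heat and lipolysis, and their effectors were called in both directions. Of 36 genes of this list tested, 9 were more than 2-fold higher in BAT and 9 in eWAT (4 and 12 with library size alone). Over all genes tested the shares were 9.55% in BAT and 18.5% in eWAT. The list is not limited to cAMP: *Adra1a*, an adrenergic receptor that signals through calcium, was at 117, 158 and 252 CPM in BAT and 4.09, 7.95 and 17.4 CPM in eWAT (4.32 ± 0.09). Adenylyl cyclases, which make cAMP, lay on both sides: *Adcy3* was at 141, 217 and 364 CPM in BAT and 17.5, 19.9 and 23.8 CPM in eWAT (3.46 ± 0.10), and *Adcy5* was at 2.85, 6.3 and 9.83 CPM in BAT and 65.9, 104 and 147 CPM in eWAT (-4.17 ± 0.12). *Pde4d*, which breaks cAMP down, was higher in BAT (3.24 ± 0.11). *Tshr*, the receptor for thyrotropin, was at 5.11, 16.8 and 54.7 CPM in BAT and 117, 146 and 192 CPM in eWAT (-3.18 ± 0.10), with no overlap.

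Of 35 genes of NAD metabolism, 9 were more than 2-fold higher in BAT and 11 in eWAT; with library size alone the counts were 3 and 13. *Nampt*, the enzyme that recycles nicotinamide and the gene deleted in the FANKO mice, was at 455, 664 and 1398 CPM in WT BAT and 105, 141 and 291 CPM in WT eWAT (2.13 ± 0.08, glmTreat adjusted p = 1.75e-14). *Slc25a51*, the mitochondrial NAD carrier, was at 456, 592 and 730.2 CPM in BAT and 73, 104 and 159 CPM in eWAT (2.45 ± 0.06), and *Sirt3*, a mitochondrial deacylase that spends NAD, differed by 2.75 ± 0.05. *Nnmt*, which methylates nicotinamide and so removes it, was at 5.42, 14.7 and 35.5 CPM in BAT and 76.4, 106 and 148 CPM in eWAT (-2.93 ± 0.17). None of these 4 genes overlapped between depots. *Kynu* and *Haao*, which make NAD from tryptophan, were near 0 in BAT (-4.64 ± 0.46 and -3.80 ± 0.28).

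Of 21 clock genes, 4 were more than 2-fold higher in BAT and none in eWAT, against 9.55% and 18.5% of all genes tested. Among the 4, *Hlf*, an output factor, was at 16, 35.8 and 59.9 CPM in BAT and 5.79, 11.4 and 22.5 CPM in eWAT (1.67 ± 0.08). *Ciart* differed by 1.43 ± 0.13 and *Rorb* by 4.07 ± 0.31. The levels of *Rorb* were low, with means at single times of 1.06 to 1.89 CPM in BAT and 0.0489 to 0.12 CPM in eWAT. With library size alone the counts of clock genes called were 2 and 2. The core activator *Arntl* did not pass the test of the depot difference (-0.14 ± 0.16, quasi-likelihood adjusted p = 0.43), with a wide range over the day in each depot (1.06, 18.8 and 55.3 CPM in BAT, 1.31, 14.8 and 51.8 CPM in eWAT).

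Collagens, the main protein of the matrix, were mostly higher in eWAT: 21 of 35 were more than 2-fold higher in eWAT and 4 in BAT (median -1.97). *Col3a1*, a fibrillar collagen, was at 50.3, 367 and 660.2 CPM in BAT and 524, 1661 and 2351 CPM in eWAT (-2.18 ± 0.20), *Col4a6* of basement membranes differed by -5.60 ± 0.11, and *Col6a5* by -8.28 ± 0.32. On the BAT side, *Col27a1* was at 29.7, 77.2 and 116 CPM in BAT and 3.08, 4.41 and 5.59 CPM in eWAT (4.07 ± 0.10). Progenitor and fibroblast markers moved with them: 11 of 18 were more than 2-fold higher in eWAT and 1 in BAT, and their summed level was 391 to 586 CPM in BAT and 1621 to 2295 CPM in eWAT. *Dpp4*, a marker of early progenitors, was at 1.6, 2.6 and 4.41 CPM in BAT and 38.4, 59.1 and 77.9 CPM in eWAT (-4.45 ± 0.11), and *Pdgfra*, on most fibroblasts and progenitors, differed by -1.50 ± 0.07. Their part in the collagen result was not tested.

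**Figure D5:**
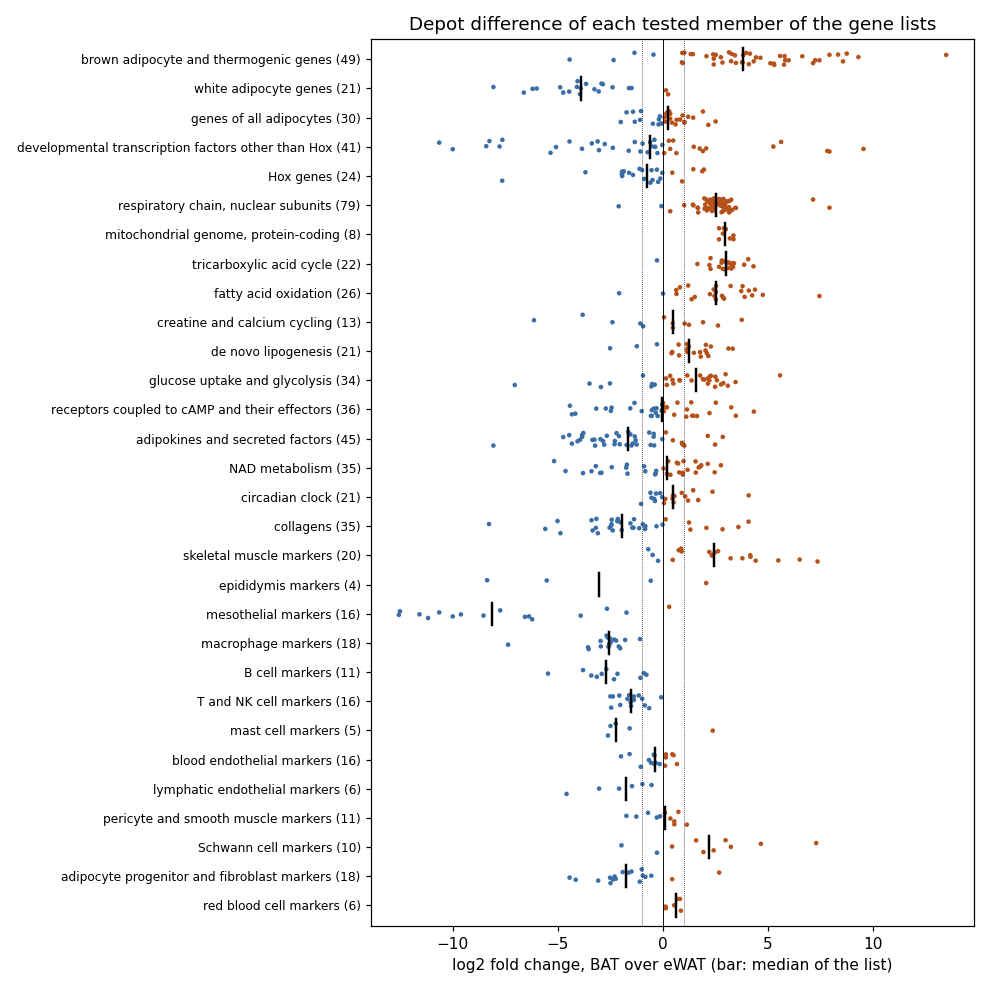
Each row is a list of genes with the number tested in brackets, each point a gene placed by its log2 fold change of BAT over eWAT, and each bar the median of the list; dotted lines mark a 2-fold difference. Respiratory chain genes gather around 2.54, and mesothelial markers reach from just above 0 to -12.56. Blood endothelial markers have a median of -0.37, with 2 of 16 more than 2-fold higher in eWAT.

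Of the lists of cell type markers, the mesothelial markers had the median farthest toward eWAT. Of 16 mesothelial markers, 15 were more than 2-fold higher in eWAT (median -8.14), and their summed level was 32.5 to 49.5 CPM in BAT and 437 to 1089.5 CPM in eWAT. *Msln*, which encodes the surface protein mesothelin, was at 0, 0 and 0.135 CPM in BAT and 25.8, 76.2 and 104 CPM in eWAT, from 2 counts against 23977, a ratio of 7378 (2042 to 60922). *Upk3b*, a uroplakin, was at 0, 0 and 0.165 CPM in BAT and 56.1, 134 and 170.3 CPM in eWAT (-12.51 ± 0.27), and *Muc16*, a membrane mucin, at 0, 0.0234 and 0.404 CPM in BAT and 47.8, 101 and 202 CPM in eWAT (-11.17 ± 0.33). With *Krt19*, a keratin of simple epithelia (-7.74 ± 0.17), 4 of the 12 protein-coding genes with the largest differences toward eWAT at a mean log2 CPM of at least 1 were on this list. The other 8 were *Alb*, serum albumin (0, 0 and 0.269 CPM in BAT, 21.4, 99.2 and 582 CPM in eWAT, -11.27 ± 0.49), the protease inhibitor *Slpi* (-11.21 ± 0.38), the endocytic receptor *Lrp2* (-10.47 ± 0.40), *Col6a5*, *Agt*, the complement component *C6* (-7.92 ± 0.18), the GABA transporter *Slc6a13* (-6.85 ± 0.14) and *D430019H16Rik* (-6.82 ± 0.29). Whether these 8 come from the same cells was not tested.

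Immune cell markers were also mostly higher in eWAT. Of 18 macrophage markers, 17 were more than 2-fold higher in eWAT and none in BAT (median -2.56). *Adgre1*, which encodes the F4/80 antigen, was at 6.51, 8.64 and 14.2 CPM in BAT and 31.6, 44.9 and 56.1 CPM in eWAT (-2.33 ± 0.09), and *Cd68*, a lysosomal marker, at 2.02, 3.08 and 4.6 CPM in BAT and 11.3, 15.3 and 17.2 CPM in eWAT (-2.23 ± 0.08). *Marco*, a scavenger receptor, had 2 counts in BAT and 787 in eWAT. Of 11 B cell markers 8 were more than 2-fold higher in eWAT, led by *Ighm*, the heavy chain of IgM, at 3.01, 5.48 and 6.74 CPM in BAT and 90.4, 237 and 418 CPM in eWAT (-5.47 ± 0.14). Of 16 T and NK cell markers 7 were (4 without replicate 4 of every group, 14 with library size alone), all at low levels (summed 6.03 to 11.4 CPM in BAT and 16.9 to 34.6 CPM in eWAT). Mast cell proteases such as *Cma1* were also higher in eWAT (-2.62 ± 0.19), whereas *Kit*, on the same list, was higher in BAT (10.8, 60.7 and 152 CPM in BAT, 7.82, 11.2 and 15.8 CPM in eWAT, 2.36 ± 0.13); the other 4 markers summed to 1.6 to 4.08 CPM in BAT and 6.86 to 21.2 CPM in eWAT.

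Blood endothelial markers had a median difference of -0.37. Of 16 blood endothelial markers, 2 were more than 2-fold higher in eWAT and none in BAT, and the summed level was 724 to 947 CPM in BAT and 767 to 959 CPM in eWAT. *Cdh5*, the cadherin of endothelial junctions, was at 90.4, 107 and 133 CPM in BAT and 91.8, 122 and 153 CPM in eWAT (-0.16 ± 0.05), while *Plvap*, the diaphragm of fenestrated vessels, was at 2.86, 3.67 and 5.28 CPM in BAT and 8.86, 14.4 and 21.4 CPM in eWAT. Of 11 pericyte and smooth muscle markers, 2 were called in eWAT, *Acta2* (-1.74 ± 0.11) and *Tagln* (-1.27 ± 0.11). Over all genes tested 18.5% were called in eWAT, and neither this count nor that of the blood endothelial markers exceeded that share. When replicate 1, 2 or 4 of every group was left out, 1 pericyte and smooth muscle marker was called. The same held without the 4 BAT libraries rich in muscle markers or the libraries labelled ZT18 replicate 4. Of 6 lymphatic markers, 3 were more than 2-fold higher in eWAT, with *Lyve1* at 2.06, 4.18 and 8.92 CPM in BAT and 23.5, 34 and 47.8 CPM in eWAT (-3.04 ± 0.13). Of 6 red blood cell markers none passed the 2-fold test. With library size alone, 6 of the 16 blood endothelial and 6 of 6 lymphatic markers were called in eWAT.

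Markers of Schwann cells, which wrap peripheral nerves, were mostly higher in BAT. Of 10 Schwann cell markers, 7 were more than 2-fold higher in BAT and 1 in eWAT (median 2.16), and with library size alone 4 were called in BAT. *Gldn*, which organizes the nodes of myelinated axons, was at 1.34, 7.68 and 27.4 CPM in BAT and 0, 0 and 0.321 CPM in eWAT (7.28 ± 0.48), with no overlap. *Egr2*, the regulator of peripheral myelin, was higher in eWAT (-1.98 ± 0.24).

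Skeletal muscle markers were uneven over the BAT libraries. Of 20, 10 were more than 2-fold higher in BAT (median 2.41). Their summed level was 374 to 696 CPM in 4 BAT libraries, 64.1 to 217 CPM in the other 12 and 56.3 to 139 CPM in eWAT, and *Myh4*, the myosin of fast fibers, ran over 0, 13.4 and 223 CPM in BAT and 0, 0.0859 and 0.669 CPM in eWAT. Without the 4 libraries 7 markers were called, without replicate 4 of every group 2, and by limma-voom none. *Acta1* did not differ by either test (-0.70 ± 0.52). For the brown genes that muscle shares, *Fabp3*, *Cpt1b* and *Cox7a1* had log2 fold changes of 9.16, 7.41 and 7.89 without the 4 libraries, whereas *Ckmt2* and *Atp2a1* had 1.61 and 2.53, against 2.61 ± 0.57 and 3.74 ± 0.60 with them, and *Ckmt2* then no longer passed the 2-fold test (glmTreat adjusted p = 0.118). The epididymis, which adjoins eWAT, was represented by few reads: 4 of its 22 markers were tested, and they summed to at most 17.4 CPM in eWAT, with *Crisp1* at 0.292, 3.02 and 15.9 CPM.

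The depot difference itself changed with the time of day for a minority of genes. An interaction of depot and time (3 degrees of freedom) passed an FDR of 0.01 for 760 genes (4% of those tested), of which 181 were also more than 2-fold apart on average and 71 had called differences in both directions at different times. Over these 760 genes the difference ranged by a median of 0.93 across the 4 times, against 0.54 over all genes. The counts of genes called at single times were 4952 and 5618 (BAT and eWAT higher, 26% and 29.5% of those tested) at ZT6, 4896 and 5609 (25.7% and 29.5%) at ZT10, 4489 and 5372 (23.6% and 28.2%) at ZT18, and 4482 and 5170 (23.6% and 27.2%) at ZT22. The interaction count was itself unsteady: it was 125 to 853 when each replicate number was left out, 1345 by DESeq2, and 1309 without the libraries labelled ZT18 replicate 4.

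Of the 8 genes with the smallest interaction p, 5 were higher in BAT at ZT18 and ZT22 than at ZT6 and ZT10. *Kit*, a receptor for stem cell factor, went in BAT from 18.7 ± 7.21 CPM at ZT6 and 37.4 ± 12.3 at ZT10 to 126 ± 36 at ZT18 and 116 ± 33.2 at ZT22 (mean ± SD, n = 4), and in eWAT from 13.9 ± 2.04 to 9.4 ± 1.06 between ZT6 and ZT22. Its depot difference was 0.44 at ZT6 and 3.70 at ZT18 (interaction adjusted p = 3.57e-07, quasi-likelihood test in edgeR). *St6gal1*, a sialyltransferase, was at 15 ± 1.96 CPM in BAT and 17.7 ± 1.01 in eWAT at ZT10, but at 44.7 ± 3.7 and 15.6 ± 1.64 at ZT18, so that a difference of -0.23 became 1.52 (interaction adjusted p = 5.98e-08). *Sh3bp4*, an adaptor of endocytosis, turned from -1.03 at ZT6 to 0.89 at ZT18. *Med12l*, a Mediator subunit, turned from -0.41 at ZT10 to 1.23 at ZT18, and *Rnf150* rose from 0.55 at ZT10 to 1.61 at ZT22.

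The other 3 genes had their highest BAT levels at ZT6 or ZT10. The sign of a difference at a single time depends on the scaling, since scaling by library size alone shifts the differences toward eWAT. *Ubtf*, the factor of ribosomal RNA genes, was at 96.5 ± 10.9 CPM in BAT and 67.9 ± 3.43 in eWAT at ZT6 and at 39.5 ± 1.47 and 65.9 ± 6.42 at ZT18, so that a difference of 0.51 became -0.74 (interaction adjusted p = 1.57e-07). *Coq10b*, which binds coenzyme Q, fell from a difference of 1.83 at ZT6 to 0.44 at ZT18, and *Slc25a22*, a mitochondrial glutamate carrier, from 1.87 to 0.37 at ZT22. Of the 21 clock genes, *Nr1d1* and *Ciart*, both repressors, had an interaction; *Nr1d1* overlaps *Thra* on the other strand. *Nr1d1* was lower in BAT at ZT10 (32.2 ± 10.6 against 56.7 ± 7.65 CPM) and higher at ZT22 (15.6 ± 2.85 against 3.6 ± 1.03 CPM; interaction adjusted p = 5.82e-06).

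Beside the WT values, the depots of FANKO mice lay closer together for genes chosen by their WT difference. *Nampt* itself was at 109 to 186 CPM in FANKO BAT and 101 to 131 CPM in FANKO eWAT, against 479 to 1454 and 112 to 309.7 CPM in WT, with all 64 libraries scaled and fitted together. Of 1814 genes that were more than 2-fold higher in WT BAT and tested in all 64 libraries, 84.1% kept the sign in FANKO and 343 were still more than 2-fold higher, and the median difference went from 1.95 to 0.48. Of 3522 genes higher in WT eWAT, 65.2% kept the sign, 968 were still more than 2-fold higher, and the median went from -2.42 to -0.56. In FANKO mice 7.2% and 6.16% of genes passed the same test in the 2 directions. The genotypes differed in the depot difference of *Cidea* (8.73 in WT, 4.34 in FANKO, edgeR adjusted p of the difference = 6.99e-26), *Cs* (2.78 and 0.52, 2.14e-24) and *Fasn* (2.14 and 0.00, 8.99e-10). For *Zic1* (9.55 and 10.01), *Lhx8* (7.93 and 8.60) and *Wt1* (-10.68 and -10.11) the test of the difference did not pass (each adjusted p = 1.00), but with so few counts in the low depot it could have missed a difference. *Tbx15* was further apart in FANKO mice (5.24 and 6.67, adjusted p = 0.002). These fitted values were chosen after they were seen.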

How the data were processed

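RNA of whole BAT and eWAT was sequenced as ribosome-depleted total RNA from stranded libraries. The authors deposited raw read counts per gene. The submitters' processing notes name STAR 2.5.3a, featureCounts 1.5.3, FastQC 0.11.5, MultiQC 1.2 and build GRCm38.p5, and the strand option is not given in the sources used here.

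The 52636 genes of the 32 WT libraries were filtered with filterByExpr (minimum count 10, total 15), which left 19020. They were scaled by TMM and fitted with edgeR 4.0.16 (R 4.3.3) as 8 means of depot and time. The depot difference was the average over the 4 times, tested by the quasi-likelihood test, and by glmTreat against a 2-fold difference. The interaction of depot and time was tested with 3 degrees of freedom. All p values were adjusted by Benjamini-Hochberg over all genes tested, with an FDR of 0.01. Log2 CPM values and the ratios of gene pairs carry a prior count of 2, and the fitted differences carry edgeR's default. Alternatives were other scalings and filters, DESeq2 1.42.0, limma-voom (limma 3.58.1), a replicate block, an additive model, all 64 libraries, and libraries left out. Leaving out the 4 BAT libraries highest in muscle markers, and those labelled ZT18 replicate 4, was chosen after seeing the data.

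The comparison and the gene lists were chosen with earlier results of these data known. Named were, in each direction, among genes that passed glmTreat, the 12 protein-coding genes with the largest difference (mean log2 CPM of at least 1, same direction at all 4 times) and the 5 with the largest difference in CPM, key genes and up to 3 leading members of each list, the 8 genes with the smallest interaction p (mean log2 CPM of at least 1), *Nampt* and the paralog pairs. Lists were described by counts and medians, without a test. Values of some genes that the rule names are not reported here. On simulated data with 18402 genes, 50 of 50 genes changed 8-fold, 46 of 50 changed 4-fold and 24 of 50 changed 2.5-fold passed glmTreat. None of 18202 unchanged genes did. Few genes were changed there, evenly in both directions, so the simulation could not test the effect of the scaling. Counting depth limits genes with few reads, and intervals cover counting error only.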

Additional observations from a re-analysis of the deposited data

Results flagged for a closer look

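For 10 genes the depot difference itself changed with the time of day by the interaction test in edgeR. The range of the log2 difference over the 4 times was 3.26 for *Kit*, 2.95 for *Nr1d1*, 1.92 for *Sh3bp4*, 1.75 for *St6gal1* and 1.65 for *Med12l*. It was 1.61 for *Ciart*, 1.497 for *Slc25a22*, 1.39 for *Coq10b*, 1.24 for *Ubtf* and 1.06 for *Rnf150*.

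The depot difference of 12961 genes (64% of those tested in all 64 libraries) differed between WT and FANKO mice at an FDR of 0.01.

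Among the same 10 genes, 5 of 80 groups of 4 libraries held 1 library far from the other 3, where chance gives about 1 in 20. These were *Rnf150* in BAT at ZT10 (replicate 2, 61.4 CPM), *Kit* in eWAT at ZT22 (replicate 3, 7.82 CPM), and *Slc25a22* in eWAT at ZT22 (replicate 4, 26.6 CPM). The other two were *Sh3bp4* (36.5 CPM) and *Ciart* (5.29 CPM) in the BAT library labelled ZT18 replicate 4.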

How the results depend on the processing

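No gene called more than 2-fold apart changed sign under any of the alternatives run, and 69.5% (stricter filter, which tested fewer genes) to 99.7% of the 5341 calls were made again. Library size alone gave 2236 and 13936 genes (BAT and eWAT higher), 808 and 6296 by the 2-fold test, and 300 genes with an interaction. It also turned the sign of *Aox1* (-0.73), *Fabp4* (-0.60), *Cox4i2* (-0.41), *Med12l* (-0.34), *Nr1d1* (-0.23), *St6gal1* (-0.22) and *Pparg* (-0.11). The interaction count of 760 became 1345 by DESeq2, 1232 with all 64 libraries, 1758 at an FDR of 0.05, 1309 without the libraries labelled ZT18 replicate 4, and 125 to 853 when replicate numbers were left out in turn. The cause was not tested. The labels do not say whether libraries with the same replicate number share a mouse, and the main fit left them unpaired. Deviations of same-numbered libraries from their group means correlated by -0.01 to 0.33, and 5 of 16 pairs were over 0.1. Each BAT library was set against all 16 eWAT libraries, and 6 of the 16 correlated best with the one of their own number. Shared mice therefore remain possible, and the p values of the main fit take no account of them. With the replicate block the counts were 6574 and 7646, 1855 and 3593 by the 2-fold test, and 902 for the interaction. Depth limits genes with few counts, such as *Zic1*, *Zic4*, *Lhx8*, *Wt1*, *Bnc1*, *Gata5*, *Tcf21* and *Hoxc9*, whose low depot held 0 to 3 counts.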

Other observations

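Families defined after the values were seen gave further values, with no test. Of 77 mitochondrial ribosomal proteins, 53 were more than 2-fold higher in BAT and none in eWAT, with a median difference of 1.39. Of 82 cytosolic ribosomal proteins, 3 were more than 2-fold higher in BAT and none in eWAT, with a median of 0.10; at an FDR of 0.01, without the 2-fold threshold, 31 were higher in BAT and 14 in eWAT. Of 43 Slc25 mitochondrial carriers, 17 were more than 2-fold higher in BAT and 6 in eWAT (median 0.86). Of 31 serpins, which inhibit proteases, 25 were more than 2-fold higher in eWAT and 1 in BAT (median -4.33), and of 8 claudins, which seal epithelia, 4 were more than 2-fold higher in eWAT and none in BAT.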
